A study of Mus musculus with 228 samples.

Results

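Single neurons were taken by patch pipette from acute slices of the ventral hippocampus of adult mice aged 3 to 4 months, and the RNA of each cell was sequenced separately. The cells described here are CA1 pyramidal neurons of Nex-Cre mice that had received Cre-dependent AAV-EGFP together with AAV-Ascl4, a virus carrying the transcription factor gene Ascl4, 1 month before collection. They were divided by their own Ascl4 level: reads per 1000000 reads of the cell (CPM) of Ascl4 were computed in each of the 45 cells of this kind in the quality-controlled table (which also holds 46 EGFP CA1, 51 Ascl4 GC and 47 EGFP GC cells), and the 22 cells above the median were set against the 22 cells below it, with the median cell in neither group. They are called Ascl4-high and Ascl4-low cells. Nex-Cre CA1 cells with Cre-dependent AAV-EGFP alone (EGFP CA1, 46 cells) gave the background without the Ascl4 virus, and dentate granule cells of Calb1-Cre mice with both viruses (Ascl4 GC, 25 cells above and 25 below their own median) were set beside them. All of these cells carried Cre and EGFP, and the control had no second virus in place of AAV-Ascl4. Cre-dependent vectors are switched on only in cells with Cre. The cells taken here were CA1 pyramidal neurons of Nex-Cre mice and granule cells of Calb1-Cre mice. The labels name no animal, slice or batch, so each cell is a GEO sample of its own but cannot be assigned to an independent animal. The cells were therefore not treated as replicates, and the groups were chosen by a measured value, the cell's own Ascl4 CPM. No test was made, and every difference given is a description of these cells.

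Ascl4 belongs to the achaete-scute family of basic helix-loop-helix transcription factors. These proteins pair with E proteins such as Tcf3, Tcf4 and Tcf12 and bind short E-box sequences in DNA, while Id proteins bind E proteins and keep them from doing so. Members of the family are known for directing neuronal differentiation and for acting on the Notch pathway. CA1 pyramidal cells are mature glutamatergic neurons that send the output of the hippocampus, and they normally no longer use this programme.

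Ascl4 (chromosome 10, 85927681 to 85946206, plus strand, GRCm38) spanned a wide range among cells that had all received its virus. In Ascl4-low cells the lowest, median and highest levels were 23.2, 3874 and 6593 CPM, and in Ascl4-high cells they were 6989, 11969 and 31943 CPM. The cell at the median stood at 6716 CPM, so the cells next to the boundary, at 6593 and 6989 CPM, lay close together. Summed over cells, Ascl4 was at 13587 CPM in Ascl4-high and 3484 CPM in Ascl4-low cells, a ratio of 3.90. Ascl4 was the most abundant of all genes in 11 of 22 Ascl4-high cells and in 0 of 22 Ascl4-low cells. EGFP CA1 cells held 0.78 to 153.2 CPM with a median of 16.1 CPM. A single Ascl4-low cell (WA221, by its title) lay inside that control range at 23.2 CPM, and the next lowest held 1497 CPM, 21.3 times less than the highest cell. Ascl4-low therefore means less Ascl4 than in the other cells with the virus, not absence of Ascl4, in 21 of 22 cells. The counts do not separate viral from endogenous Ascl4 transcripts.

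**Figure D1:**
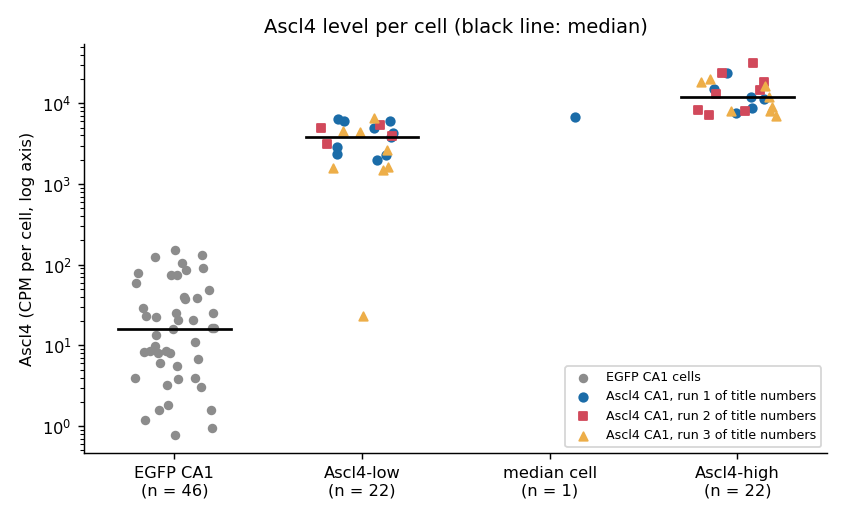
Ascl4 in CPM per cell on a log axis, for 46 EGFP CA1 cells, 22 Ascl4-low cells, the median cell and 22 Ascl4-high cells; each point is a cell, black lines are medians, and colours and shapes give the 3 runs of title numbers. Apart from 1 cell at 23.2 CPM, all cells with the Ascl4 virus lie above the highest EGFP cell at 153.2 CPM.

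Sequencing depth and cell quality differed somewhat with the Ascl4 level. Total reads per cell were 1077532 to 25442664 (median 4897964) in Ascl4-high and 1213041 to 7995809 (median 3483261) in Ascl4-low cells, and the deepest Ascl4-high cell (WA140) held 20.4% of the reads of its group. Over the 45 cells the Spearman correlation of Ascl4 CPM was 0.16 with total reads, 0.01 with the number of detected genes, -0.24 with the mitochondrial share and -0.40 with the share of CT010467.1, a ribosomal RNA row. With every cell thinned to 500000 reads, the median number of detected genes was 5488.5 in Ascl4-high, 4556.5 in Ascl4-low and 4440 in EGFP CA1 cells. The numbers in the cell titles form 3 runs, WA121 to WA140, WA163 to WA180 and WA216 to WA235, and the labels do not say what a run stands for. The first run held 6 Ascl4-high and 10 Ascl4-low cells, the second 8 and 4, and the third 8 and 8. The 4 cells of lowest Ascl4 all came from the third run, and each of them stood apart. They were cell WA226, whose microglia markers summed to 71485 CPM against 1521 CPM of CA1 markers, cell WA228, with 17883 detected genes and 37.7% mitochondrial reads, cell WA221, with almost no Ascl4, and cell WA227, which had the highest share of the ribosomal RNA row of the 45 cells, 13.1%, and the second highest interferon effector sum, 9481 CPM. In cell WA227 the summed glutamate receptor and GABA-A receptor genes stood at 788.6 and 6.02 CPM. The part of depth, run and cell quality in the differences was not tested.

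The first question was how far the transcriptome of Ascl4-high cells departed from that of Ascl4-low cells. A gene was taken as expressed with a read in at least 25% of the cells and 10 CPM in summed reads in 1 of the groups. It was counted as higher when it was at least 2-fold higher in the summed reads, in the mean of per-cell CPM and in that mean after the top cell of either group was left out, with 10 CPM or more in a larger share of cells. Of 9756 expressed genes, 1311 were higher (13.4%) and 911 were lower (9.34%) in Ascl4-high cells. These became 1299 and 989 without WA221, 1263 and 986 without WA227, and 1353 and 884 without the 4 cells of lowest Ascl4. The median log2 ratio over all expressed genes, on summed CPM with a pseudocount of 1 CPM, was 0.05. The same rule applied to granule cells, divided at their own median Ascl4 of 11177 CPM, counted 1271 of 9516 genes as higher (13.4%) and 1369 as lower (14.4%). By mean level, 13.4% of the 4131 genes between 30 and 100 CPM were counted as higher and 7.60% as lower, 1.53% and 0.767% of the 391 genes between 300 and 1000 CPM, and 0 of 73 genes above 1000 CPM. In the per-cell mean, 780 of the 1311 higher genes lay above 0 in each of the 3 runs of title numbers, and 307 of the 911 lower genes lay below 0 in each. Among all 9756 expressed genes, 1521 were above and 749 below 0 in every run. The counted genes were chosen on the per-cell mean of these same cells, which favours the same sign in every run. Their counts are therefore no evidence that the differences recur between runs.

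**Figure D2:**
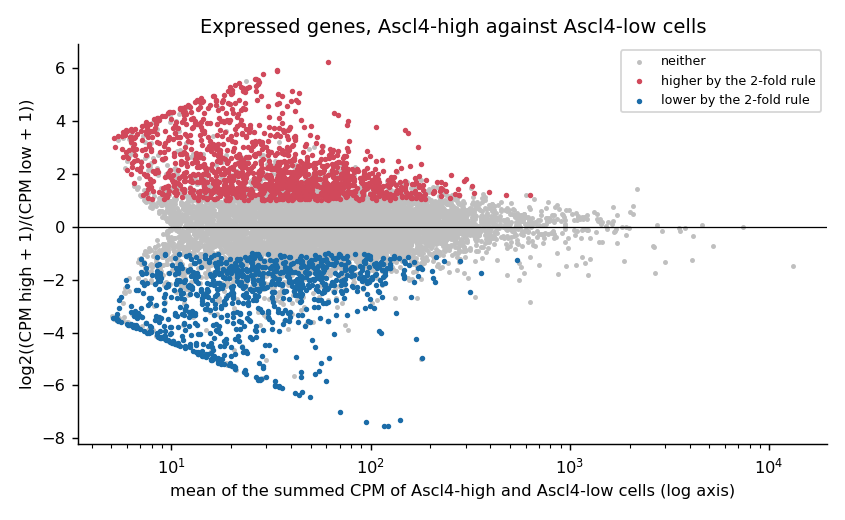
Log2 ratio of summed CPM, Ascl4-high over Ascl4-low cells with a pseudocount of 1 CPM, against the mean level on a log axis; each point is 1 of 9756 expressed genes. The 1311 genes counted as higher are red and the 911 counted as lower are blue, and none of the 73 genes above 1000 CPM is coloured.

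The genes most unequal between Ascl4-high and Ascl4-low cells, among those at 10 CPM in at least 5 more cells of 1 group, were taken first. Smpd4, which makes a sphingomyelinase (chromosome 16, 17619354 to 17644828, plus strand), was highest by ratio. It was at 121.8 CPM (95% exact Poisson interval 119.9 to 123.7) in Ascl4-high and 0.63 CPM (0.48 to 0.82) in Ascl4-low cells, and it reached 10 CPM in 10 of 22 against 0 of 22 cells. Its median over Ascl4-high cells was 2.76 CPM and its highest cell held 411.5 CPM, whereas no Ascl4-low cell exceeded 4.202 CPM. EGFP CA1 cells, without the virus, held 161.1 CPM of Smpd4, more than either group. The intervals reflect counting error alone, because amplified reads were not collapsed to molecules. The other 11 genes high by this rule were Paqr8, Tbc1d25, Carmil3, Prkd2, Dhx35, Fdxr, Shroom2, Gpr176, Stambpl1, Tbc1d5 and Mfap2, with log2 ratios from 5.91 for Paqr8, a membrane progesterone receptor, to 4.97 for Mfap2, a microfibril protein. Prkd2, protein kinase D2, reached 10 CPM in 5 of 22 Ascl4-high cells, in 0 Ascl4-low cells and in 2 of 46 EGFP CA1 cells. Carmil3, a regulator of actin capping, was the gene of this set whose level followed Ascl4 most closely over the 45 cells, with a Spearman correlation of 0.42. The set was chosen from groups formed on the same Ascl4 values, so this correlation is no separate evidence. In granule cells the same 12 genes had log2 ratios from -2.14 for Dhx35 to 5.75 for Gpr176, 7 of them above 0. The median over all 9516 genes expressed in granule cells was 0.11, so most of those genes also lay above 0.

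At the other end stood Mobp, a myelin protein gene of oligodendrocytes (chromosome 9, 120149707 to 120181484, plus strand). It was at 0.32 CPM (0.23 to 0.44) in Ascl4-high and 244.3 CPM (241.0 to 247.6) in Ascl4-low cells, a log2 ratio of -7.54. Cells at 10 CPM or more numbered 0 of 22 and 8 of 22, and 12 of 46 among EGFP CA1 cells. One cell carried much of this: the highest Ascl4-low cell held 6688 CPM of Mobp and the median was 0.25 CPM, and the log2 ratio of means was -5.46 after the top cell of either group was left out. Adamts1, a secreted protease that cuts proteoglycans, was at 0.78 against 282.0 CPM, in 1 against 8 cells, and at 24.3 CPM in EGFP CA1 cells. Cryab, a small heat shock protein that is abundant in glia, was at 0.06 against 71.8 CPM, with 10 CPM in 0 against 5 cells. Cdh6, a cadherin, was at 0.06 against 39.1 CPM and at 0.75 CPM in EGFP CA1 cells. For Cnst 1 read was found in all Ascl4-high cells, against 4734 in Ascl4-low cells, a ratio of 6770 with a counting interval from 1215 upward. Def8 had 2 and 4860 reads, a ratio of 3475 with a counting interval from 961.5 upward. The rest of the 12 lowest genes were Dusp26, G6pdx, Kbtbd7, Thrsp, Slc25a20 and Slc12a9, with log2 ratios from -7.03 to -5.27. Mobp and Cryab were also far lower in granule cells with more Ascl4 (-6.83 and -4.11), while Dusp26 (2.77) and Slc25a20 (2.05) went the other way there.

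Because E-boxes of the form CANNTG are what basic helix-loop-helix factors bind, the promoters of these 24 genes were read in RefSeq (GRCm38.p6), over the 250 bases before the start of the gene. Of 12 higher genes 5 held CANNTG and 0 held CAGCTG, and of the 10 lower genes found there 5 held CANNTG and 1 held CAGCTG. Both motifs read the same on either strand, and each CAGCTG is also a CANNTG. Among the 7577 expressed genes with a promoter in the table, 55.5% held CANNTG and 10.99% CAGCTG, and over all 27018 genes of the table the shares were 66.1% and 12.8%. Among the genes with an E-box, the one of largest ratio in each direction is shown to let its place be seen, with each CANNTG in capitals. The first lies on the minus strand at chrX:8175925-8176174, with 2 E-boxes of which the first begins 74 bases before the start. The second lies on the plus strand at chr8:123442706-123442955, with 1 E-box, a CAGCTG. A match is a string of letters and not a measured binding site.
Tbc1d25: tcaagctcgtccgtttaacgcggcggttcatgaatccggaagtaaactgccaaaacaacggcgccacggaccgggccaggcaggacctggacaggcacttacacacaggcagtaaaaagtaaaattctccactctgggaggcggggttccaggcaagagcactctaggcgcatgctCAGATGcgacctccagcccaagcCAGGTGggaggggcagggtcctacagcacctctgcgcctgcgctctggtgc
Def8: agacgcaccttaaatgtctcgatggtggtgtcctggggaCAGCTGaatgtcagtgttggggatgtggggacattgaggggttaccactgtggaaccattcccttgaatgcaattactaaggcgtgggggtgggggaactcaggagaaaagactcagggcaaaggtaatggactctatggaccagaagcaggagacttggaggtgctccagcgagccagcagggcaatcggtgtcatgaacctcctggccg

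A second way to ask what went with Ascl4 was to rank genes by their Spearman correlation with Ascl4 CPM over all 45 cells, which needs no boundary. The rule that formed the groups used the same Ascl4 values, so these correlations are no second line of evidence. Over the 5982 genes with a read in at least 50% of the cells the median correlation was 0.08 and the range -0.52 to 0.52. A correlation above 0.4 was found for 1.72% of them and one below -0.4 for 7 genes. All 45 cells share the same table and vary in depth, so these values are descriptions. The highest correlations belonged to Dda1, Klhdc9, Prelid3b, Chchd1, Emc4, Kctd13, Slc4a10 and Ak6, between 0.52 and 0.49. Several of these make parts of basic cell machinery: Chchd1 a subunit of the mitochondrial ribosome, Prelid3b a mitochondrial lipid transfer protein, Emc4 a subunit of the complex that inserts membrane proteins into the endoplasmic reticulum, and Dda1 and Kctd13 partners of cullin ubiquitin ligases. Klhdc9, a kelch domain protein (chromosome 1, 171358446 to 171360798, minus strand), was at 61.6 CPM in Ascl4-high and 12.98 CPM in Ascl4-low cells. It reached 10 CPM in 12 of 22 Ascl4-high cells, with a median of 42.3 and a highest value of 306.1 CPM, and in 2 of 22 Ascl4-low cells, with a median of 0. EGFP CA1 cells held 62.8 CPM. Chchd1 was at 118.4 against 31.1 CPM, in 15 against 6 cells, with 73.8 CPM in EGFP CA1 cells. Slc4a10, a sodium bicarbonate transporter of neurons, was at 250.5 against 79.8 CPM, in 16 against 11 cells. Kctd13 reached 10 CPM in 16 against 6 cells, Emc4 in 20 against 13, Prelid3b in 15 against 5 and Dda1 in 18 against 13. Ak6, an adenylate kinase of the nucleus, reached 10 CPM in 20 Ascl4-high and 10 Ascl4-low cells, but its summed level was alike at 426.9 and 409.4 CPM, and 1 Ascl4-low cell held 5624 CPM. None of the 8 had a granule cell log2 ratio above 1.00, and Klhdc9 was at -2.12 there.

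Among the same 5982 genes the lowest correlations belonged to Trpv2, Tmcc3, Sfmbt1, Krr1, Cflar, Fgfr1, Rsl24d1 and Tex261, from -0.52 to -0.39. Fgfr1, a receptor of fibroblast growth factors (chromosome 8, 25513654 to 25575718, plus strand), was at 6.81 CPM (6.36 to 7.28) in Ascl4-high and 67.8 CPM (66.1 to 69.6) in Ascl4-low cells. It reached 10 CPM in 3 of 22 Ascl4-high cells (median 0, highest 133.6 CPM) and in 14 of 22 Ascl4-low cells (median 38.3, highest 354.6 CPM). The Ascl4-low cells with Fgfr1 came from all 3 runs of title numbers, 7 of 10, 2 of 4 and 5 of 8. EGFP CA1 cells held 46.1 CPM with 18 of 46 cells at 10 CPM, between the 2 groups. Trpv2, a cation channel, was at 19.3 against 112.03 CPM, in 1 against 7 cells. Sfmbt1, a chromatin protein of the Polycomb group, was at 2.95 against 120.8 CPM and at 6.52 CPM in EGFP CA1 cells. Cflar, which blocks death receptor signalling, was at 9.60 against 36.4 CPM, in 3 against 7 cells. Tex261 reached 10 CPM in 7 against 14 cells, Rsl24d1 in 6 against 11, Krr1 in 4 against 8 and Tmcc3 in 2 against 6. In granule cells 7 of these 8 genes had a log2 ratio below 0, from -0.72 to -1.95, and Rsl24d1 was at 1.04. The median over all 9516 genes expressed there was 0.11, so fewer of those genes lay below 0 than above it. Whether these 8 genes depart from that background was not tested.

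**Figure D3:**
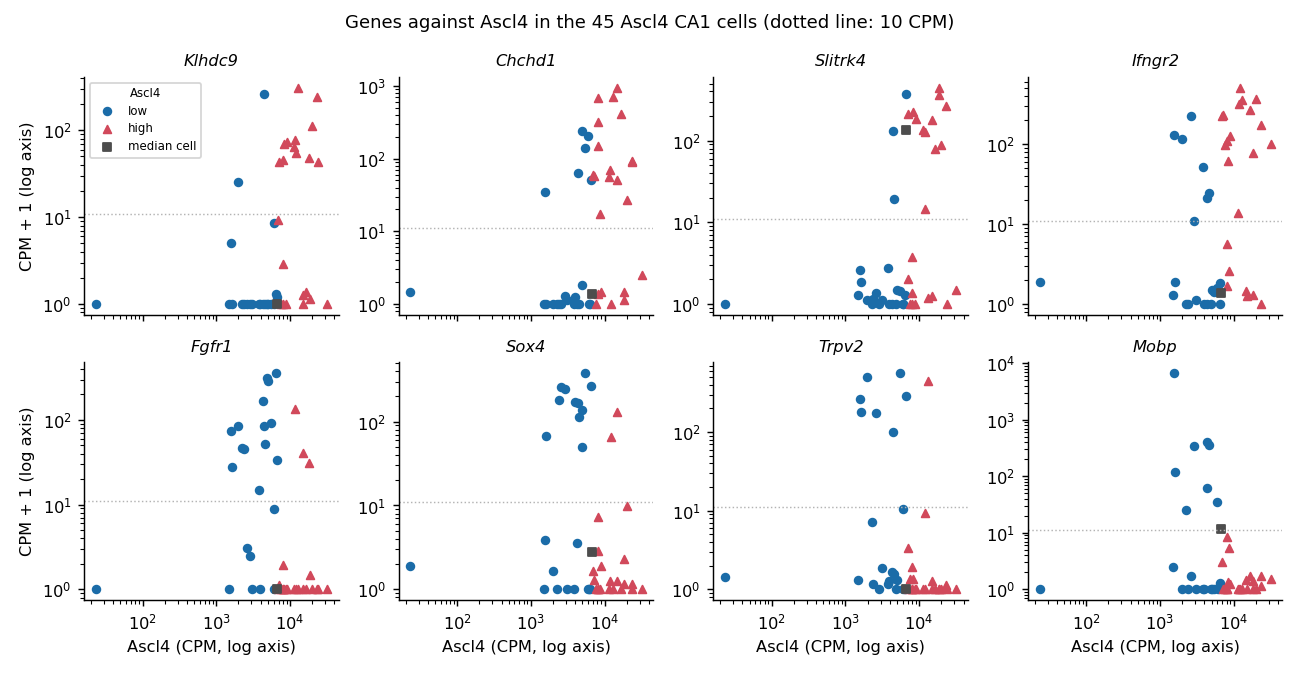
CPM of 8 genes (plus 1, log axis) against Ascl4 CPM (log axis) in the 45 Ascl4 CA1 cells; blue circles are Ascl4-low cells, red triangles Ascl4-high cells and the grey square the median cell, and the dotted line marks 10 CPM. Klhdc9, Chchd1, Slitrk4 and Ifngr2 reach 10 CPM mainly in Ascl4-high cells, and Fgfr1, Sox4, Trpv2 and Mobp mainly in Ascl4-low cells, with many cells of both kinds at or near 0.

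The E proteins, partners of Ascl4, differed by less than 2-fold between Ascl4-high and Ascl4-low cells. Tcf4, the most abundant E protein, was at 648.0 CPM in Ascl4-high and 520.6 CPM in Ascl4-low cells, and reached 10 CPM in 21 and 20 of 22 cells. Tcf3 was at 21.01 and 20.95 CPM and Tcf12 at 32.03 and 43.6 CPM, each in 3 to 5 cells per group. Of the Id genes, Id2 was at 114.9 against 379.3 CPM, with 7 and 9 cells at 10 CPM, and Id1 at 16.4 against 8.75 CPM. Id4 had 0 reads in Ascl4-high cells and 15.1 CPM in Ascl4-low cells, at least 624.5-fold lower when 3 reads over the group are taken as the limit, but it rested on 2 cells. Over the 5 expressed members of the E protein and Id list the median log2 ratio was -0.43, with 0 higher and 1 lower. Its direction depended on the measure, and it was 0.20 with per-cell CPM averaged. Leaving the top cell of either group out of that average gave 0.27 over the same 5 members and 0.45 over the 4 then expressed. The median was 0.12 with the authors' normalized values and 0.13 with cells divided within runs. The counts for this and the following lists stand beside a background of 13.4% higher and 9.34% lower over all expressed genes. That background fell with level, from 19.06% higher and 15.99% lower between 10 and 30 CPM to 6.13% and 3.16% between 100 and 300 CPM. The median level was 28.6 CPM for interferon effectors and 24.4 CPM for astrocyte markers, but 254.9 CPM for nuclear oxidative phosphorylation genes. The background was not matched to the level of each list. Among 12 expressed Ascl family and neuronal helix-loop-helix genes 2 were higher and 1 was lower, with a median of -0.22. This median too changed direction, to 0.15 with averaged per-cell CPM and 0.22 with the authors' normalized values. With the top cells also left out of the average it was 0.76 over the same 12 genes and 0.98 over the 11 then expressed. It was 0.15 over the 10 genes expressed with cells thinned to 500000 reads, and 0.01 without WA221. Bhlhe22, a repressor that shapes cortical projection neurons, was one of the higher ones at 34.96 against 4.97 CPM, in 7 against 1 cells, and at 26.3 CPM in EGFP CA1 cells. Neurod2 (66.3 and 73.9 CPM) and Neurod6 (77.8 and 120.6 CPM), factors of pyramidal neurons, differed by less than 2-fold, and both lay under the EGFP CA1 level of 92.7 and 319.3 CPM.

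The Notch pathway, which achaete-scute factors act on, had members on both sides. Of 20 expressed genes 5 were higher and 5 lower, with a median of -0.12, which was 0.07 with the authors' normalized values and 0.20 without WA226. The ligand Dll1 was at 67.3 against 1.08 CPM (log2 ratio 5.04), in 4 against 1 cells, with 17.8 CPM in EGFP CA1 cells. Its correlation with Ascl4 over the 45 cells was nevertheless -0.19. Psen2, a catalytic subunit of gamma-secretase, was at 86.3 against 1.61 CPM, in 4 against 2 cells, but its log2 ratio was -2.22 in the third run. The receptor Notch2 was at 0.12 against 30.6 CPM, in 0 against 4 cells, and Notch1 was at 0.55 and 1.83 CPM, below the level for an expressed gene. The target Hes1 was at 2.39 and 2.51 CPM against 53.8 CPM in EGFP CA1 cells, and Hes5 had 1 read in each group.

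CA1 pyramidal markers had a median log2 ratio of 0.09, and 2 of their 29 expressed members were higher and 1 was lower. The median was -0.09 without the 4 cells of lowest Ascl4. Their summed level per cell had a median of 6723 CPM in Ascl4-high, 6360 CPM in Ascl4-low and 7827 CPM in EGFP CA1 cells. Its correlation with Ascl4 was 0.03. Slc17a7, the vesicular glutamate transporter, was at 292.2 and 304.6 CPM, and Dcn, a matrix proteoglycan, at 581.5 and 652.7 CPM. Fibcd1 was at 180.1 and 138.7 CPM, far below the 542.7 CPM of EGFP CA1 cells in both, and reached 10 CPM in 10 and 5 of 22 cells against 39 of 46. Wfs1, an endoplasmic reticulum protein, was at 336.6 against 123.6 CPM, in 12 against 8 cells. Its log2 ratio in the per-cell mean was 0.80, so it did not count as higher. Lmo3 (218.8 against 97.3 CPM, 17 against 10 cells) and Spink8 (51.6 against 16.99 CPM, 8 against 3 cells) were the higher members, and Zbtb20, a repressor needed for CA1 fate, was the lower one (320.4 against 769.8 CPM, in 19 against 21 cells).

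Granule cell markers had a median of -0.20, and 0 of their 13 expressed members were higher and 3 lower. Calb1 was at 1190 and 986.5 CPM. Prox1 had 3 reads in Ascl4-high cells and 19.1 CPM in Ascl4-low cells, of which 1 cell held 481.5 CPM. C1ql2 had 2 reads in Ascl4-high cells and 47.3 CPM in Ascl4-low cells, with 2 cells at 10 CPM. The ratio of CPM was 792.8 (counting interval from 270.8 upward) for Prox1 and 2945 (from 814.8 upward) for C1ql2, and with so few positive cells they describe those cells. Granule markers outweighed CA1 markers in 2 Ascl4-high, 1 Ascl4-low and 0 EGFP CA1 cells. Interneuron markers, by contrast, had a median of 0.82, and 2 of their 6 expressed members were higher and 0 lower. Lamp5, a marker of some interneurons that pyramidal cells also use, was at 286.9 CPM (283.9 to 289.8) against 23.3 CPM (22.3 to 24.3), with 12 against 3 cells at 10 CPM and 67.1 CPM in EGFP CA1 cells. Gad1, which makes GABA, was at 52.9 against 0.13 CPM, but only 2 cells reached 10 CPM and the higher held 1216 CPM. Without the 10 cells in which glial markers outweighed CA1 markers, its log2 ratio was -0.12.

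Of 49 expressed trans-synaptic organizers 9 were higher and 2 lower, with a median of 0.21. Slitrk4, a postsynaptic adhesion protein (chromosome X, 64264885 to 64276996, minus strand), was at 127.8 CPM (125.8 to 129.8) against 27.3 CPM (26.2 to 28.4). It reached 10 CPM in 12 of 22 Ascl4-high cells (median 46.4, highest 441.2 CPM) and 3 of 22 Ascl4-low cells (median 0.23, highest 372.8 CPM). Its correlation with Ascl4 was 0.43, over the same Ascl4 values that formed the groups. The Ascl4-high cells with Slitrk4 came from all 3 runs (3, 4 and 5 cells), and the 3 Ascl4-low cells all came from the third. EGFP CA1 cells held 42.4 CPM. Ptprf, a receptor phosphatase that organizes presynaptic sites, was at 68.98 against 2.54 CPM, in 5 against 1 cells.

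Glutamate receptor and postsynaptic genes had a median of 0.32, and 5 of their 39 expressed members were higher and 2 lower. That direction did not hold with averaged per-cell CPM (-0.03), with the authors' normalized values (-0.04), with cells thinned to 500000 reads (-0.01) or in the first run (-0.15). Neto2, an auxiliary subunit of kainate receptors, was at 163.2 against 54.0 CPM, in 14 against 6 cells, and at 33.5 CPM in EGFP CA1 cells. Gria4, an AMPA receptor subunit, was lower at 11.4 against 54.6 CPM, in 4 against 9 cells, and its log2 ratio was 4.08 in the second run. The list of GABA-A receptor and inhibitory postsynaptic genes had a median of 0.62, and 2 of its 16 expressed members were higher and 0 lower. With averaged per-cell CPM its median was 0.23. Gphn, the scaffold gephyrin, was at 165.2 against 55.9 CPM, in 14 against 8 cells. Presynaptic release genes had a median of 0.23, and 2 of their 46 expressed members were higher and 1 lower, among them the vesicle priming gene Unc13b at 60.5 against 17.9 CPM. With the cells divided at the median Ascl4 of their own run of title numbers, the log2 ratio was -0.06 for Unc13b and -0.07 for Neto2.

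Guidance genes had a median of 0.33, and 3 of their 36 expressed members were higher and 2 lower. The median was 0.12 with averaged per-cell CPM, 0.07 with the authors' normalized values and -0.005 without a filter on low genes. Epha5, an Eph receptor, was at 170.4 against 48.5 CPM, in 13 against 8 cells, and Plxnb2, a semaphorin receptor, at 111.1 against 15.3 CPM, in 5 against 2 cells, though its log2 ratio was -1.44 in the third run. Cadherins and catenins had a median of -0.04, and 2 of their 25 expressed members were higher and 5 lower, among them Cdh8 at 53.2 against 0.95 CPM, in 7 against 0 cells. Axon growth and cytoskeletal genes had a median of 0.12, and 0 of their 51 expressed members were higher and 5 lower. Gap43, a growth cone protein, was at 494.6 and 342.7 CPM. Sox4 and Sox11, transcription factors of immature neurons that are on this list, were lower. Sox4 (chromosome 13, 28948919 to 28953713, minus strand) was at 16.2 CPM (15.5 to 16.95) against 92.7 CPM (90.7 to 94.8), and reached 10 CPM in 2 of 22 Ascl4-high cells (median 0.20 CPM) and 11 of 22 Ascl4-low cells (median 25.7 CPM). The 11 cells came from all runs (3, 3 and 5), and EGFP CA1 cells held 41.04 CPM, in 15 of 46. Sox11 was at 97.1 against 308.7 CPM, in 11 against 14 cells. The immature neuron list as a whole had a median of -0.77, and 1 of its 13 expressed members was higher and 2 were lower, but the median was 0.13 with cells divided at the median of their own run. Dcx, its classic member, was at 32.1 and 28.2 CPM. In granule cells with more Ascl4, Sox4 stood at a log2 ratio of 1.13. Map1a, a microtubule protein, was lower at 43.8 against 192.4 CPM. In the second run, where 4 Ascl4-low cells were left, Map1a stood at 4.50.

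Potassium channels had a median of 0.10 (6 of 32 higher, 1 lower) and sodium, calcium and HCN channels 0.04 (3 of 29 higher, 3 lower). With averaged per-cell CPM these medians were -0.17 and -0.48. Kcnj4, an inward rectifier, was at 11.7 against 1.24 CPM, in 7 against 1 cells. Activity-regulated genes, with 40 expressed members, had 0 higher and 0 lower and a median of -0.19, or 0.11 with averaged per-cell CPM. Fos was at 1926 and 1915 CPM, Egr1 at 1611 and 1774 CPM, Arc at 587.4 and 618.9 CPM and Bdnf at 202.1 and 186.98 CPM. Arc was at 1332 CPM in EGFP CA1 cells. Nuclear oxidative phosphorylation genes had a median of 0.00, and 1 of their 52 expressed members was higher, Ndufs1 of complex I at 192.4 against 79.5 CPM. Targets of p53 and cell death genes had a median of -0.44, and 2 of their 17 expressed members were higher and 1 lower, among the former Sesn1 in 8 against 1 cells. The median was 0.09 without the 4 cells of lowest Ascl4. Chaperones and genes of endoplasmic reticulum stress had a median of 0.25, and 1 of their 25 expressed members was higher, Creld2 at 55.7 against 18.3 CPM. Their summed level per cell had the largest correlation with Ascl4 of all 33 lists, 0.41. That sum was 4667 to 14212 CPM (median 9190) in Ascl4-high, 1316 to 14562 CPM (median 8406) in Ascl4-low and 2858 to 17455 CPM (median 8461) in EGFP CA1 cells, and the ranges overlapped.

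Oligodendrocyte markers had a median of -2.84, and 0 of their 9 expressed members were higher and 5 lower. Taking Enpp2, which had 0 reads in Ascl4-high cells, at its limit of 3 reads left the median as it was. At least 3 oligodendrocyte markers reached 10 CPM in 1 of 22 Ascl4-high, 9 of 22 Ascl4-low and 14 of 46 EGFP CA1 cells. The median of the list was -1.42 without cell WA228 and 5.36 in the second run, where only 4 Ascl4-low cells were left, and without the 10 cells in which glial markers outweighed CA1 markers only 3 members counted as expressed, with a median of 1.40. It was -4.40 in granule cells with more Ascl4, where 0 of 9 expressed members were higher. The summed level per cell had a correlation of -0.04 with Ascl4. Astrocyte markers had a median of -1.16, and 0 of their 13 expressed members were higher and 7 lower. Slc1a3, a glutamate transporter of astrocytes, was at 0.36 against 39.3 CPM, and Aqp4, their water channel, at 1.82 against 40.4 CPM, in 0 and 1 Ascl4-high cells against 4 Ascl4-low cells for each. This list stood at -0.12 without cell WA228 and at 0.04 with cells divided at the median of their own run.

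The immune gene lists given next had lower medians in Ascl4-high cells in summed reads, and these medians lay above 0 without 1 Ascl4-low cell. For MHC class II the measure mattered too, as averaged per-cell CPM gave 0.23 with all cells kept. Interferon-induced effectors had a median log2 ratio of -0.99, and 3 of their 37 expressed members were higher and 11 lower. MHC class I genes had -1.55 (0 of 15 higher, 5 lower), MHC class II genes -1.04 (0 of 8 higher, 0 lower), chemokines -1.18 (0 of 13 higher, 1 lower) and microglia markers -0.88 (0 of 28 higher, 5 lower). Cell WA226, an Ascl4-low cell with 1613 CPM of Ascl4 and 7.87% of the reads of its group, held 71485 CPM of microglia markers, while the Ascl4-low median was 1531 CPM and the Ascl4-high median 1163 CPM. Without it the medians were 0.05 for interferon effectors (7 of 33 higher, 5 lower), 0.14 for MHC class I (0 of 13 and 2), 0.92 for MHC class II (3 of 7 and 0), 0.24 for chemokines (2 of 12 and 0) and 0.29 for microglia markers (3 of 27 and 1). Without all 4 cells of lowest Ascl4 they were 0.60, 0.37, 0.79, 0.33 and 0.20 in the same order. By run of title numbers, interferon effectors stood at 1.82, 5.28 and -2.80 and microglia markers at 0.95, 6.29 and -3.73. The summed levels per cell had correlations with Ascl4 of 0.17 for interferon effectors, -0.01 for MHC class I, 0.00 for MHC class II, 0.15 for chemokines and -0.01 for microglia markers.

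At least 3 interferon effectors reached 10 CPM in 21 of 22 Ascl4-high and 17 of 22 Ascl4-low cells, against 24 of 46 EGFP CA1 cells. Ifit1, which blocks translation of viral RNA, was at 6.81 and 92.8 CPM, in 2 and 5 cells, and at 0.02 CPM in EGFP CA1 cells. Irf7, the driver of interferon genes, was at 36.1 and 108.1 CPM, in 5 and 8 cells, against 2.02 CPM. Ifit3 (48.2 and 144.6 CPM) and Ifi27l2a (40.8 and 102.9 CPM) reached 10 CPM in 3 and 3, and in 8 and 10 cells. Oasl2, an antiviral protein, was on the other side at 94.99 against 5.72 CPM, in 6 against 1 cells, and at 0.04 CPM in EGFP CA1 cells. Cd274, the checkpoint ligand PD-L1, was at 0.04 against 56.0 CPM, in 0 against 3 cells. Of 22 expressed genes of interferon receptors and JAK-STAT-IRF signalling, 5 were higher and 3 lower. Their median log2 ratio was 0.25, with a range from -3.33 to 3.91. Ifngr2, a subunit of the interferon gamma receptor (chromosome 16, 91547072 to 91565623, plus strand), was at 195.8 CPM (193.3 to 198.3) against 33.3 CPM (32.1 to 34.5). It reached 10 CPM in 15 of 22 Ascl4-high cells (median 98.5 CPM) and 6 of 22 Ascl4-low cells (median 0.57 CPM), and was at 159.1 CPM in EGFP CA1 cells.

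Of the antigen presentation genes, H2-K1 and H2-D1 had a lower summed level but more positive cells among Ascl4-high cells. H2-K1 was at 113.7 against 334.5 CPM but reached 10 CPM in 8 against 3 cells, and H2-D1 was at 394.3 against 1358 CPM in 12 against 6 cells. Their highest Ascl4-low cells held 3388 and 13983 CPM. B2m was at 222.1 against 890.5 CPM, in 14 against 15 cells. H2-Q7 was at 21.1 against 186.2 CPM, in 2 against 6 cells. Reads of these near-identical MHC class I genes may be split between them. Cd74 was at 135.9 against 455.6 CPM with 6 cells in each, and the chemokine Ccl5 at 127.5 against 289.7 CPM with 8 against 4 cells.

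Of microglia genes, C1qa of the complement system was at 192.96 against 361.4 CPM but in 19 against 11 cells, Cx3cr1 was at 35.5 and 49.4 CPM in 7 and 4 cells, Csf1r at 89.3 against 274.3 CPM in 4 against 9, and Tmem119 at 0.10 against 41.4 CPM in 0 against 3. Without the 10 cells named next, the log2 ratio was 1.12 for Csf1r and 0.08 for Tmem119. The pattern sensor Tlr2 was at 10.4 against 351.4 CPM, in 2 against 3 cells. Cd3e of T cells had 2 and 4 reads. Of 20 T cell markers 1 was expressed, and it counted as higher, at a log2 ratio of 3.95. The T cell markers summed to 56.8 against 8.20 CPM, and to 31.9 CPM in EGFP CA1 cells. Their median sum per cell was 0.15 CPM in Ascl4-high and 0.08 CPM in Ascl4-low cells. Microglia or oligodendrocyte markers outweighed CA1 markers in 4 Ascl4-high and 6 Ascl4-low cells, and without these 10 cells the medians were 0.39 for interferon effectors, 0.04 for MHC class I, 0.87 for microglia markers, -0.69 for MHC class II and -0.24 for chemokines, and 1678 genes were higher and 799 lower. Whether a transcript came from the neuron or from cells beside the pipette was not tested.

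**Figure D4:**
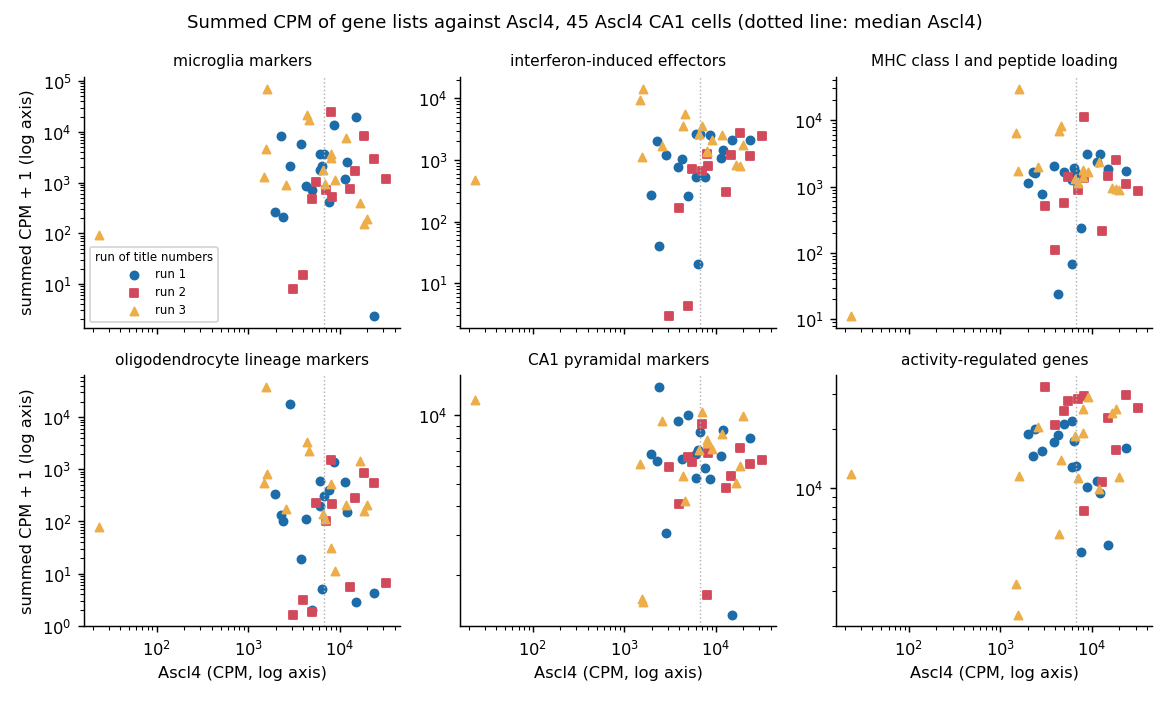
Summed CPM (plus 1, log axis) of 6 gene lists against Ascl4 CPM (log axis) in the 45 Ascl4 CA1 cells; each point is a cell, colours and shapes give the run of title numbers, and the dotted line is the median Ascl4 level. The highest microglia and MHC class I sums belong to a third-run cell at 1613 CPM of Ascl4, and CA1 marker sums have medians of 6723 CPM right of the line and 6360 CPM left of it.

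**Figure D5:**
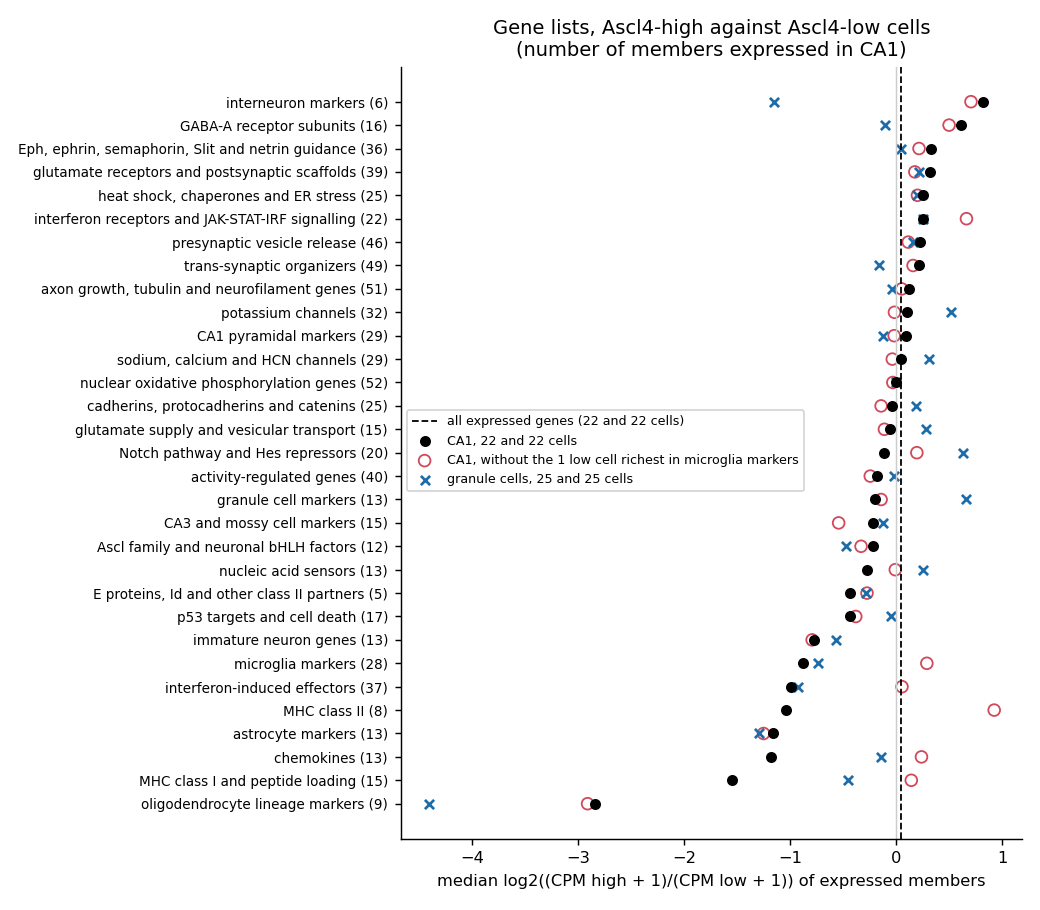
Median log2 ratio of summed CPM, Ascl4-high over Ascl4-low, for 31 gene lists with at least 5 expressed members; filled points are CA1 cells, open circles CA1 cells without the 1 Ascl4-low cell richest in microglia markers, crosses granule cells, and the dashed line is the median of all expressed genes at 0.05. Channel, CA1 and most synaptic lists lie near the line, while the microglia, interferon effector, MHC and chemokine lists move from below it to the line or above when that cell is left out.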

How the data were processed

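Each cell was a separate RNA-seq library. The deposited files hold whole read counts per gene, 1 table of all 228 cells and 1 of the 189 that passed the authors' quality control, and 1 of the authors' normalized signal, used only as an alternative. The submitters' processing notes name STAR, HTSeq and GRCm38.p4, without versions. The study's text states more Ascl4 CA1 cells past quality control than the 45 in the table, and the others were not analysed here.

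CPM was each count over the cell's total without the 92 spike-in rows, times 1000000. Log2 ratios compare reads summed over the cells of a group, with a pseudocount of 1 CPM. Genes were named by a rule: the 12 counted genes of largest ratio each way with at least 5 more cells at 10 CPM in 1 group, the 8 highest and 8 lowest correlations with Ascl4, genes chosen for their function, and up to 4 counted genes from each of 33 lists (1066 of 1076 genes found). The members and lists were chosen with earlier results of these data known. No p-value was computed, because the labels tie no cell to an animal and cells are not replicates. Coordinates come from GENCODE M21 (GRCm38), which held 22533 of 22870 gene rows. Intervals of CPM are 95% exact Poisson intervals, and those of ratios are 95% exact binomial intervals on the reads of both groups. Both kinds cover counting error only. The counting was run on simulated counts with known changes in better expressed genes. Such counts do not give the error rate of the rule in these cells. Python 3.11.15, numpy 2.4.6, pandas 2.3.3 and scipy 1.17.1 were used, and edgeR 4.0.16 in R 4.3.3 gave TMM scaling. The results were recomputed under 17 other settings, and under 7 more chosen after seeing the data.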

Additional observations from a re-analysis of the deposited data

Results flagged for a closer look

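Among the 13 Ascl4 CA1 cells absent from the quality-controlled table, 12 held more Ascl4 than the highest EGFP CA1 cell (153.2 CPM), a signal in cells outside the comparison. Their Ascl4 ranged from 90.2 to 24011 CPM with a median of 5902 CPM. Their total reads ranged from 67889 to 5135696 with a median of 956807.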

How the results depend on the processing

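The 1311 higher and 911 lower genes became 585 and 302 with a filter of 50% of cells and 50 CPM, and 778 and 476 with a pseudocount of 10 CPM. With the mean of per-cell CPM without the highest cell of each group 2044 genes were higher, and the median was 0.053 for MHC class II and 0.14 for chemokines. These medians cover the 7 and 12 members expressed under that setting. Over the 8 and 13 members expressed in the main comparison the same measure gave 0.71 and -0.03. MHC class II stood at 0.37 with the authors' normalized values and at 0.23 with the mean of per-cell CPM. Without a filter, interneuron markers stood at -0.083. In the remaining settings that kept cells of all 3 runs, 1211 to 1833 genes were higher and 767 to 1357 lower.

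The runs of title numbers taken alone differed most. In the first, 1479 genes were lower, and the log2 ratio was 1.82 for interferon effectors, 0.91 for MHC class I, 0.92 for chemokines, 0.95 for microglia markers, 1.16 for Csf1r, 1.32 for Tlr2, -0.30 for Spink8, -0.026 for Lmo3 and -1.67 for Unc13b. In the second, with 4 Ascl4-low cells, 2995 genes were higher and 492 lower, the median of all genes was 1.27, and 85.9% of counted genes were higher, against 59.0% over all cells and 46.8% in the first run. Its lists stood at 5.28 for interferon effectors, 4.25 for MHC class I, 5.61 for MHC class II, 3.48 for chemokines, 6.29 for microglia and 5.36 for oligodendrocyte markers. Its genes stood at 0.14 for Mobp, 0.072 for G6pdx and Thrsp, 0.036 for Cryab, Slc25a20, Tmcc3 and Tmem119, 3.63 for Cflar, 4.03 for Ifit1, 6.65 for Csf1r, 0.17 for Notch2, 4.36 for H2-Q7, 4.08 for Gria4 and 4.50 for Map1a. In the third, 2197 genes were higher and 1737 lower, with 0.79 for Kbtbd7, -0.044 for Gad1, -2.22 for Psen2 and -1.44 for Plxnb2. With cells divided at the median of their own run, astrocyte markers stood at 0.043, immature neuron genes at 0.13, Unc13b at -0.063 and Neto2 at -0.074. The cause was not tested.

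Without cell WA226 the medians were 0.054 for interferon effectors, 0.14 for MHC class I, 0.92 for MHC class II, 0.24 for chemokines and 0.29 for microglia markers. Without the 10 cells of larger glial than CA1 marker sum they were 0.39, 0.037 and 0.87 for interferon effectors, MHC class I and microglia markers, with Gad1 at -0.12, Csf1r at 1.12 and Tmem119 at 0.079. Of the 1311 higher genes 1029 were counted again without those cells, and 526 of the 911 lower genes. Without the 4 cells of lowest Ascl4 the values were 0.60 for interferon effectors, 0.37 for MHC class I, 0.79 for MHC class II, 0.33 for chemokines, 0.20 for microglia markers, 0.0 for astrocyte markers and 0.996 for Tlr2. No paired analysis was possible because no title number occurs in more than 1 cell. Cells divided within runs gave 1261 higher and 985 lower genes. With 22 cells a group and few cells positive for a weakly expressed gene, single cells set many ratios.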
